A study of Bos taurus with 15 samples.

Results

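The SP and KLF transcription factors bind GC boxes and CACCC boxes in promoters through a zinc finger domain at the end of the protein that is alike in all of them, while the rest of each protein differs and decides which cofactors are recruited. SP1 and SP3 are made in nearly every cell and compete for the same GC boxes, SP1 mostly as an activator and SP3 as an activator or a repressor. KLF4 and KLF5 are known from the early mammalian embryo, where KLF5 acts in trophectoderm and inner cell mass and KLF4 in the pluripotency network. The 10 genes described here are SP1, SP2, SP3, SP4, KLF3, KLF4, KLF5, KLF6, KLF10 and KLF13. They were picked by symbol from the 10832 genes of the filtered read count table, in which all 10 were found, by NCBI Gene ID. Since SP3 is the gene of this family that the text of the study discusses as lower with frozen vesicles, its values are not independent evidence of that direction.

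The bovine embryos were produced by in vitro fertilization and were blastocysts of day 7 according to the sample labels, whereas the methods of the study give a longer culture. Control embryos (Co) were cultured without supplement, FeEV embryos with freshly isolated oviductal extracellular vesicles (oEVs), and FoEV embryos with frozen-thawed oEVs. The oEVs came from oviducts of cows in the postovulatory stage, collected at a slaughterhouse, and both oEV preparations were split from the same oviducts. The pools with the best RNA quality and concentration were taken for sequencing. Each of the 15 libraries, 5 per treatment, holds the RNA of a pool of 8 to 14 embryos, so a value is a mean over whole embryos, and fewer cells of a type cannot be told apart from less RNA per cell. Nothing in the labels says that the pools came from separate culture runs, so p-values measure the spread between these pools. Breed and embryo sex are not given in the sources used here.

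Reads assigned to genes numbered 2136713 to 4058887 in a library. The FoEV libraries, with 3392613 to 4058887 reads, all held more than the Co libraries, with 2571558 to 2977004 reads. Levels are given below as CPM (reads of a gene per 1000000 reads of the library) after TMM scaling, and differences as log2 fold changes from the edgeR quasi-likelihood test with the Benjamini-Hochberg adjustment over all 10832 genes. All markers of the inner cell mass (5 of 5) and of trophectoderm (6 of 6) passed the filter on low counts, and of the hypoblast markers GATA4, GATA6 and PDGFRA did but SOX17, with 2 to 14 reads, did not. Leukocyte markers summed to at most 6.15 CPM and oviduct epithelium markers to at most 24.6 CPM in any library. Of the 8 cumulus and granulosa cell markers, 4 passed the filter, and HSD3B1, a steroid enzyme, made up most of the sum of 108 to 309 CPM. The others that passed were CYP19A1 with 36 to 140 reads, FSHR with 14 to 43 and STAR with 11 to 20. INHA was counted with at most 1 read.

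The 10 genes were read at very different depth. KLF5 had 1649 to 2774 reads per library and took 46.7% of all reads of the 10 genes, with a mean CPM above that of 99.3% of the filtered genes. SP1, with 437 to 810 reads, and KLF6, with 512 to 1161 reads, followed. SP3, KLF3, KLF4 and KLF10 had between 144 and 552 reads. SP2, with 26 to 67 reads, and SP4, with 19 to 62 reads, were read less often, and KLF13 had 6 to 26 reads. As transcript lengths were not used here, these reads do not order the genes by transcript number. Of the 10 genes, 9 exceeded the read minimum of the filter (4.72 CPM before scaling) in all 15 libraries. KLF13 exceeded it in 2 Co, 3 FeEV and 5 FoEV libraries, so the FoEV libraries alone would have carried it through the filter, and its comparison is not free of that choice.

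**Figure D1:**
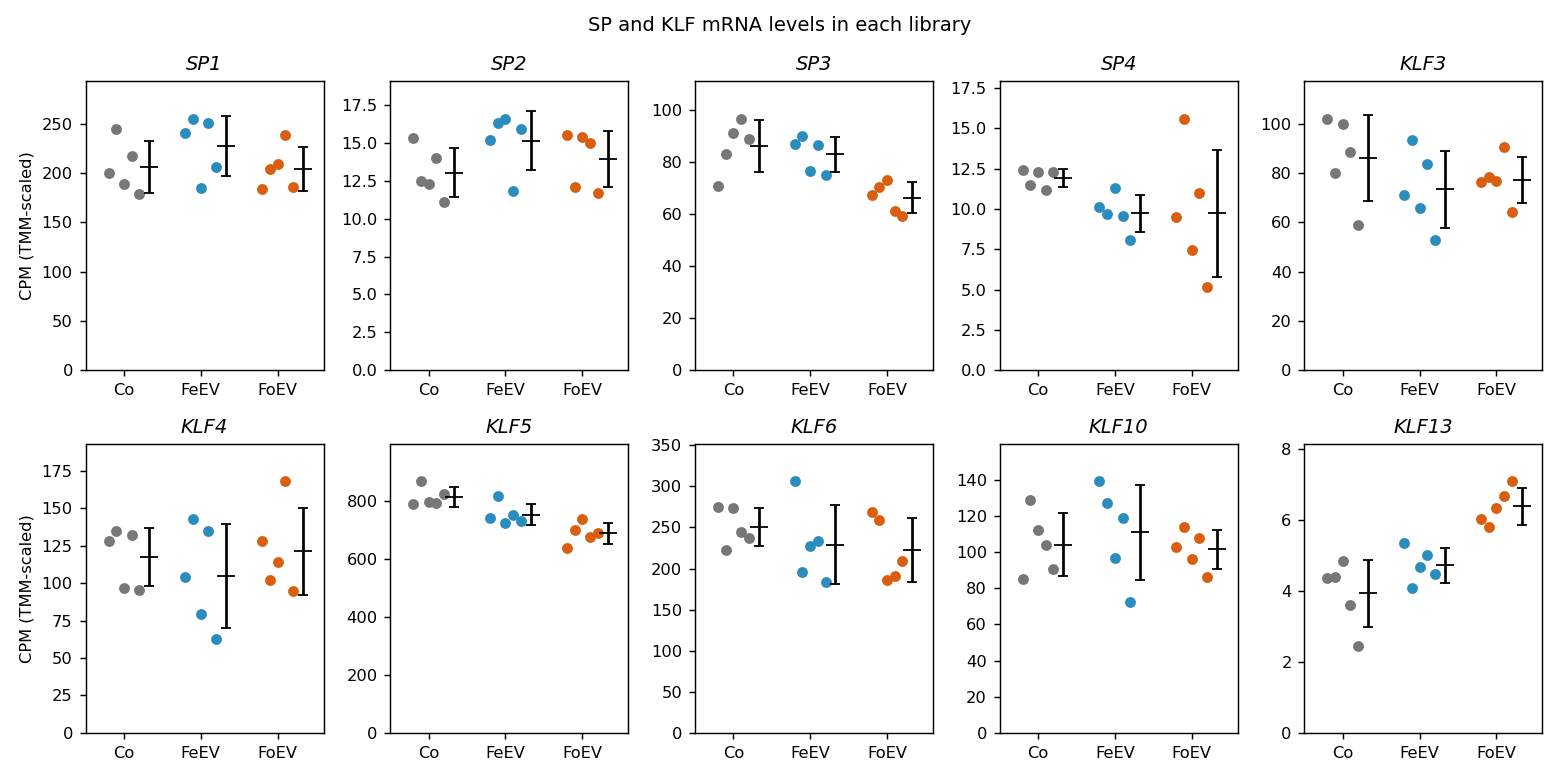
Each panel plots 1 gene, with TMM-scaled CPM on the y axis from 0 and the 3 treatments on the x axis. Points are the 5 libraries of each treatment and the black mark is the mean with its SD. KLF5 in FoEV (639 to 738 CPM) lies below Co (789 to 867 CPM), SP3 in FoEV (59.2 to 73.3 CPM) below FeEV (74.9 to 89.9 CPM), and KLF13 in FoEV (5.8 to 7.09 CPM) above Co (2.46 to 4.84 CPM), while the treatments overlap in the panels of the other 7 genes.

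In FoEV-treated embryos, SP3 and KLF5 were lower and KLF13 was higher than in control embryos at an unadjusted p under 0.05. No member passed an adjusted p under 0.05 (0 of 10 genes). Over all genes of the table, 15.1% (1631 genes) had an unadjusted p under 0.05 in this comparison, 6.88% being lower and 8.18% higher, and 0.00923% (1 gene) had an adjusted p under 0.05. The libraries of both treatments did not overlap for 2 of the 10 genes, KLF5 and KLF13, and for 2.6% of all genes. Of the 10 genes, 7 were lower and 3 higher in FoEV-treated embryos at any p, with a median log2 fold change of -0.10, while 47.7% of all genes were lower, 52.3% were higher and their median was 0.01. The log2 fold changes of the 10 genes ran from -0.37 for SP3 to 0.68 for KLF13.

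SP3 (gene 540766) had 70.7, 83, 91.3, 96.7 and 89.1 CPM in the 5 Co libraries and 67.4, 70.6, 73.3, 61.4 and 59.2 CPM in the 5 FoEV libraries. In the FeEV libraries it had 87, 89.9, 76.6, 86.5 and 74.9 CPM. The FoEV libraries were thus the lowest in the series apart from Co replicate 1, which lay among them. Means were 66.4 ± 5.99 CPM with frozen oEVs, 83 ± 6.76 with fresh oEVs and 86.2 ± 9.93 without oEVs (SD, n = 5). For FoEV treatment vs. Co the log2 fold change of SP3 was -0.37 (standard error 0.10, edgeR unadjusted p = 0.00125, adjusted p = 0.123). The difference in means was -19.8 CPM (two-sided exact permutation test, p = 0.0159, and 0.0239 after adjustment over the 3 comparisons).

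SP3 also separated the oEV treatments. All 5 FoEV libraries lay below all 5 FeEV libraries, which 0.748% of all genes did in that direction. For FoEV vs. FeEV treatment the log2 fold change of SP3 was -0.32 (standard error 0.10, edgeR unadjusted p = 0.00457, adjusted p = 0.462), and the difference in means was -16.6 CPM (exact permutation p = 0.00794, the smallest that 5 libraries against 5 allow). FeEV and Co libraries of SP3 overlapped, with a log2 fold change of -0.06 (95% interval -0.27 to 0.15, edgeR adjusted p = 1). The FoEV libraries enter both comparisons in which SP3 was lower, so these are not independent of each other. The choice of SP3 limits the permutation p between the oEV treatments in the same way.

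With the other tools, the adjusted p of SP3 in FoEV treatment vs. Co fell on the other side of the threshold. A likelihood ratio test after robust estimation of the dispersion, the approach of the study's methods, gave 0.0216 for SP3 and called 1 of the 10 genes and 2.87% of all genes. The Wald test of DESeq2 gave 0.0293 for SP3 and 0.00568 for KLF5, and called 2 of the 7 members and 2.4% of the 6002 genes to which it assigned an adjusted p. SP2, SP4 and KLF13 got no adjusted p from DESeq2 in this comparison. SP3 itself had a log2 fold change that stayed between -0.44 and -0.33 over 19 alternative settings.

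SP1 (gene 540741), the activator that shares its binding sites with SP3, did not show that pattern. It had 200, 245, 189, 217 and 179 CPM in Co, 241, 255, 185, 251 and 206 CPM in FeEV, and 184, 204, 209, 239 and 186 CPM in FoEV. The 3 treatments overlapped throughout. For FoEV treatment vs. Co the log2 fold change of SP1 was -0.01 (95% interval -0.23 to 0.21, edgeR adjusted p = 0.969), and for FeEV treatment vs. Co it was 0.14 (95% interval -0.08 to 0.36, edgeR adjusted p = 1).

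The ratio of SP1 reads to SP3 reads within a library needs no scaling between libraries, and was looked at after the values of both genes had been seen. It was 2.83, 2.95, 2.07, 2.24 and 2.01 in Co, 2.77, 2.84, 2.42, 2.9 and 2.75 in FeEV, and 2.73, 2.89, 2.85, 3.9 and 3.15 in FoEV. The means were 2.42 ± 0.439, 2.74 ± 0.188 and 3.1 ± 0.471 (SD, n = 5), and 2 Co libraries, replicates 1 and 2, lay within the range of FoEV. FoEV and Co differed by 0.681 in the mean ratio, which did not pass 0.05 (two-sided exact permutation test on the log2 ratio, p = 0.0635, and 0.159 after adjustment over the 3 comparisons).

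**Figure D2:**
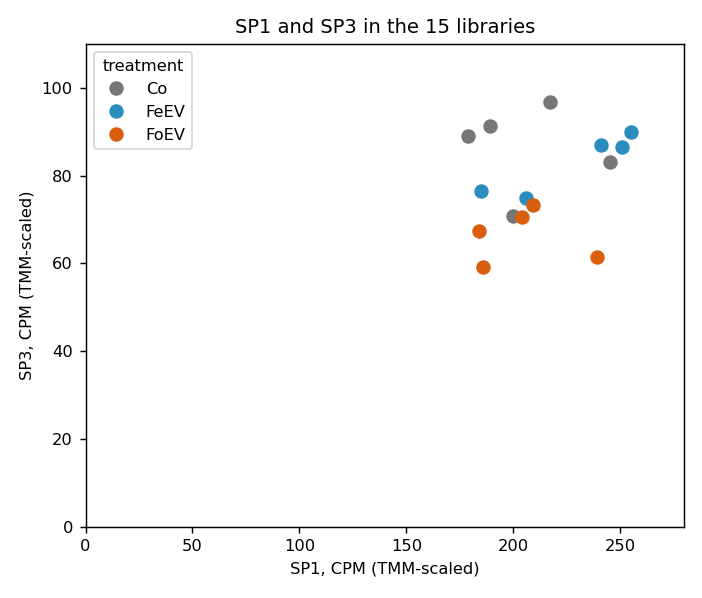
Each point is 1 of the 15 libraries, with SP1 on the x axis and SP3 on the y axis, both in TMM-scaled CPM from 0, coloured by treatment. The FoEV points lie at 59.2 to 73.3 CPM of SP3 over the same range of SP1 (184 to 239 CPM) that Co and FeEV libraries cover.

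SP2 and SP4 were read at low depth, and neither passed a test in any comparison. SP2 (gene 534403), which is needed for mouse embryonic development, averaged 13 ± 1.65 CPM (Co), 15.2 ± 1.94 CPM (FeEV) and 14 ± 1.88 CPM (FoEV; SD, n = 5). Its log2 fold change was 0.10 for FoEV treatment vs. Co (95% interval -0.24 to 0.43) and 0.23 for FeEV treatment vs. Co (95% interval -0.11 to 0.56). SP4 (gene 523019), known best from neurons, had 12.4, 11.5, 12.3, 11.2 and 12.3 CPM in Co, 10.1, 9.66, 11.3, 9.56 and 8.1 CPM in FeEV, and 9.49, 15.6, 7.44, 11 and 5.18 CPM in FoEV. Its FoEV libraries spread widely: replicate 2 held the highest SP4 level of the series, while all other FoEV libraries lay below every Co library. SP4 had a log2 fold change for FoEV treatment vs. Co of -0.29 (95% interval -0.75 to 0.18, edgeR unadjusted p = 0.212), which was -0.53 without FoEV replicate 2 (edgeR unadjusted p = 0.0198, adjusted p = 0.192), -0.13 without FoEV replicate 5 (edgeR unadjusted p = 0.536) and -0.17 with the library number as a block.

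KLF5 (gene 535702), which acts in the first lineages of the mouse blastocyst, had 789, 867, 795, 792 and 825 CPM in Co and 639, 700, 738, 675 and 688 CPM in FoEV. Every FoEV library lay below every Co library, as 1.35% of all genes did in that direction. The FeEV libraries, with 742, 818, 723, 751 and 731 CPM, lay between and overlapped both. KLF5 averaged 688 ± 36 CPM with frozen oEVs, 753 ± 38 with fresh oEVs and 814 ± 33.3 without oEVs (SD, n = 5). Its log2 fold change for FoEV treatment vs. Co was -0.24 (standard error 0.07, edgeR unadjusted p = 0.00265, adjusted p = 0.143), a level 1.18-fold higher in Co.

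The KLF5 difference was small, and KLF5 was also the member with the smallest spread between libraries, with coefficients of variation of 4.1% (Co), 5.04% (FeEV) and 5.24% (FoEV). Counting error alone gave about 2.13% in Co. The interval of its log2 fold change was -0.26 to 0.04 for FeEV treatment vs. Co and -0.28 to 0.02 for FoEV vs. FeEV treatment, so neither passed (edgeR adjusted p = 1 and 0.609). Without FoEV replicate 3, KLF5 was also lower in FoEV-treated than in FeEV-treated embryos at an unadjusted p under 0.05 (log2 fold change -0.16, edgeR unadjusted p = 0.0426, adjusted p = 0.534).

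All 6 markers of trophectoderm had a higher mean level in FoEV-treated than in control embryos, while 52.3% of all genes were higher at any p. GATA3, KRT8 and KRT18 were higher at an unadjusted p under 0.05, against 8.18% of all genes, and 0 markers passed an adjusted p under 0.05. All 6 also had a higher mean level in FeEV-treated than in control embryos. Of them, 0 had an unadjusted p under 0.05, against 4.15% of all genes, and none was at 0 in any library. Their summed level was 8237 to 11127 CPM in FoEV, 6936 to 10355 in FeEV and 6344 to 8577 in Co, and most of it came from the keratins KRT8 and KRT18. Of the 5 inner cell mass markers, 3 were higher and 2 lower in FoEV treatment vs. Co at any p, with a median log2 fold change of 0.03. POU5F1 had a log2 fold change of 0.21, SALL4 of 0.07, LIN28A of 0.03 and SOX2 of -0.03, none at an unadjusted p under 0.05. NANOG had a log2 fold change of -0.84 for FoEV treatment vs. Co (edgeR unadjusted p = 0.00641, adjusted p = 0.178) and of -0.62 for FeEV treatment vs. Co (edgeR unadjusted p = 0.0342, adjusted p = 1), and the list summed to 341 to 522 CPM in FoEV and 361 to 434 in Co. The part of these markers in the SP3 and KLF5 differences was not tested. The FoEV libraries also held more reads. With all libraries thinned to an equal number of reads, the log2 fold change was -0.38 for SP3 and -0.25 for KLF5 (edgeR adjusted p = 0.147 and 0.158). Random thinning keeps the expected share of a gene in its library, so whether these differences went with depth was not tested.

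KLF4 (gene 520842), a factor of the pluripotency network and of epithelial cells, showed no difference that exceeded the spread between pools. It had 128, 135, 97.1, 132 and 95.2 CPM in Co, 104, 143, 79.4, 135 and 62.9 CPM in FeEV, and 128, 102, 114, 168 and 94.9 CPM in FoEV. Within each treatment the libraries ranged widely, and coefficients of variation were 16.6% (Co), 32.9% (FeEV) and 23.9% (FoEV), against 4.81% to 5.87% from counting error. The 95% interval of its log2 fold change for FoEV treatment vs. Co ran from -0.40 to 0.50, so changes of that size could not be told from none with 5 pools per treatment.

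KLF3 (gene 530358), a repressor that recruits CTBP proteins, averaged 86 ± 17.5 CPM (Co), 73.4 ± 15.7 CPM (FeEV) and 77.3 ± 9.27 CPM (FoEV; SD, n = 5). Its lowest libraries were Co replicate 5, with 59.1 CPM, and FeEV replicate 5, with 52.8 CPM. KLF3 had a log2 fold change for FeEV treatment vs. Co of -0.24 (95% interval -0.55 to 0.08, edgeR unadjusted p = 0.129). Without Co replicate 5 the value was -0.34 (edgeR unadjusted p = 0.0226), while without FeEV replicate 5 it was -0.14 (edgeR unadjusted p = 0.352).

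KLF6 and KLF10 are early response genes of many cell types, and KLF10 was first described as a gene induced by TGF-beta. KLF6 (gene 505884) had 223 to 275 CPM in Co, 184 to 306 in FeEV and 186 to 269 in FoEV. KLF10 (gene 522795) had 85 to 129 CPM in Co, 72.3 to 139 in FeEV and 86.1 to 114 in FoEV. The treatments overlapped for both genes in all comparisons. FoEV treatment vs. Co gave a log2 fold change of -0.17 for KLF6 (95% interval -0.44 to 0.10) and of -0.04 for KLF10 (95% interval -0.35 to 0.27). KLF6 in FeEV replicate 1, at 306 CPM, was the highest level of that gene. For FeEV treatment vs. Co the log2 fold change of KLF6 was -0.13 (edgeR unadjusted p = 0.324), with -0.26 without FeEV replicate 1 (edgeR unadjusted p = 0.0415) and -0.06 without FeEV replicate 5 (edgeR unadjusted p = 0.652).

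KLF13 (gene 789710), a repressor that recruits the SIN3A complex, was the member with the largest difference and the fewest reads. It had 12, 13, 15, 9 and 6 reads in Co, 18, 11, 15, 11 and 16 reads in FeEV, and 26, 23, 23, 20 and 26 reads in FoEV. Scaled for depth these were 4.38, 4.39, 4.84, 3.61 and 2.46 CPM in Co, 5.36, 4.08, 4.69, 5.01 and 4.47 CPM in FeEV, and 6.02, 5.8, 6.34, 6.68 and 7.09 CPM in FoEV. All FoEV libraries lay above all libraries of the other treatments, which held for 1.26% of all genes against Co and for 0.757% against FeEV.

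For FoEV treatment vs. Co the log2 fold change of KLF13 was 0.68 (95% interval 0.18 to 1.17, edgeR unadjusted p = 0.00966, adjusted p = 0.193), and for FoEV vs. FeEV treatment 0.43 (95% interval -0.05 to 0.91, edgeR unadjusted p = 0.0765). With counts thinned to equal depth, the former was 0.56 with an unadjusted p of 0.0544 in the edgeR test. Counting error alone was 31.8% of the level in Co and 20.7% in FoEV, more than the observed spread of 23.7% and 8.04%.

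**Figure D3:**
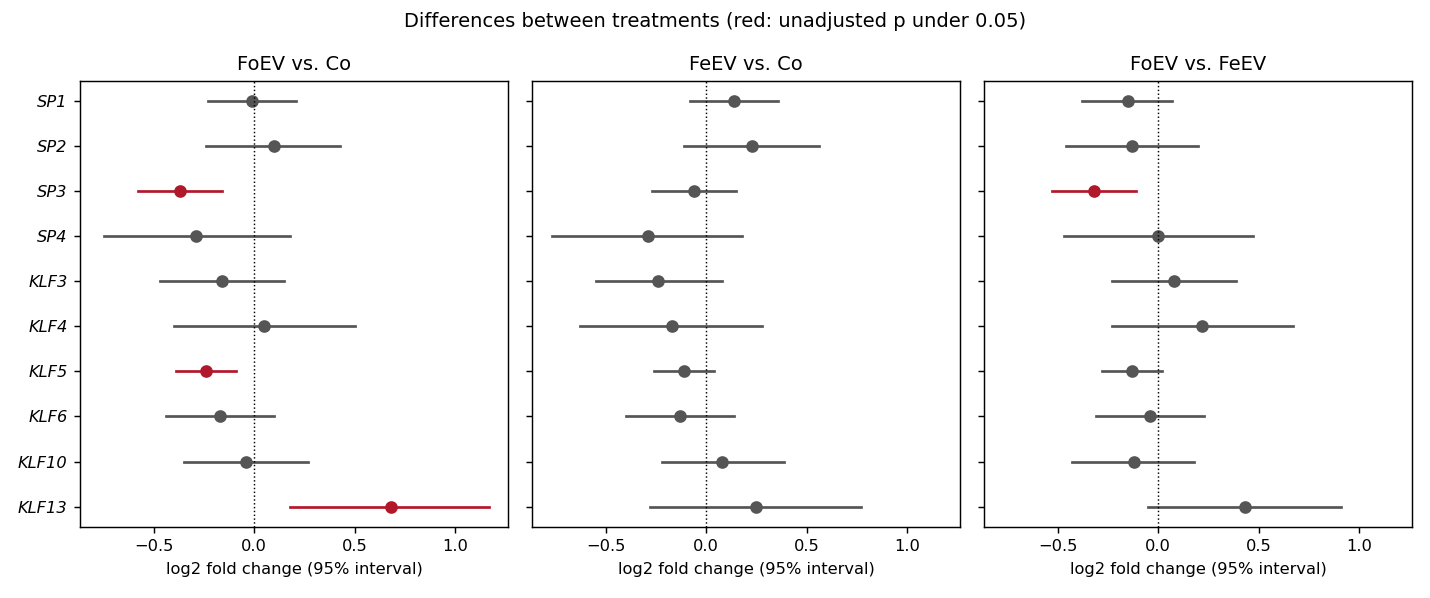
Log2 fold changes (x axis, points) with 95% intervals (lines) are plotted for the 10 genes (y axis) in the 3 comparisons, in red where the unadjusted p was under 0.05. SP3 (-0.37), KLF5 (-0.24) and KLF13 (0.68) are red for FoEV treatment vs. Co, SP3 (-0.32) is red for FoEV vs. FeEV treatment, and no gene is red for FeEV treatment vs. Co.

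Between FeEV-treated and control embryos, 0 of the 10 genes had an unadjusted p under 0.05, against 4.15% of all genes (449 genes), and the adjusted p of all members was 1, while 0% of all genes passed the adjusted threshold. The groups overlapped for all 10, against 0.951% of all genes without overlap. Log2 fold changes ran from -0.29 for SP4 to 0.25 for KLF13. Between the oEV treatments, SP3 was the 1 gene of 10 with an unadjusted p under 0.05, against 8.52% of all genes (923 genes), and 0 members, like 0% of all genes, passed the adjusted threshold. The libraries of both oEV treatments did not overlap for 2 of the 10 genes, SP3 and KLF13, and for 1.5% of all genes. Of the 10 genes, the likelihood ratio test called 0 at an adjusted p under 0.05 for FeEV treatment vs. Co and 0 between the oEV treatments, against 0.0554% and 0.286% of all genes. DESeq2 also called 0 members in both, against 0.00923% and 0.0277% of all genes.

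The plot of SP3, KLF5 and KLF13 under each setting shows how the call depended on the tool. The settings changed the normalization, the test, the filter, the samples in the fit and the covariates, or left out 1 library. For KLF5 the log2 fold change of FoEV treatment vs. Co stayed between -0.28 and -0.22 over 19 settings, with an unadjusted p of at most 0.0225. That of KLF13 stayed between 0.56 and 0.79 over the 18 settings in which it was tested.

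**Figure D4:**
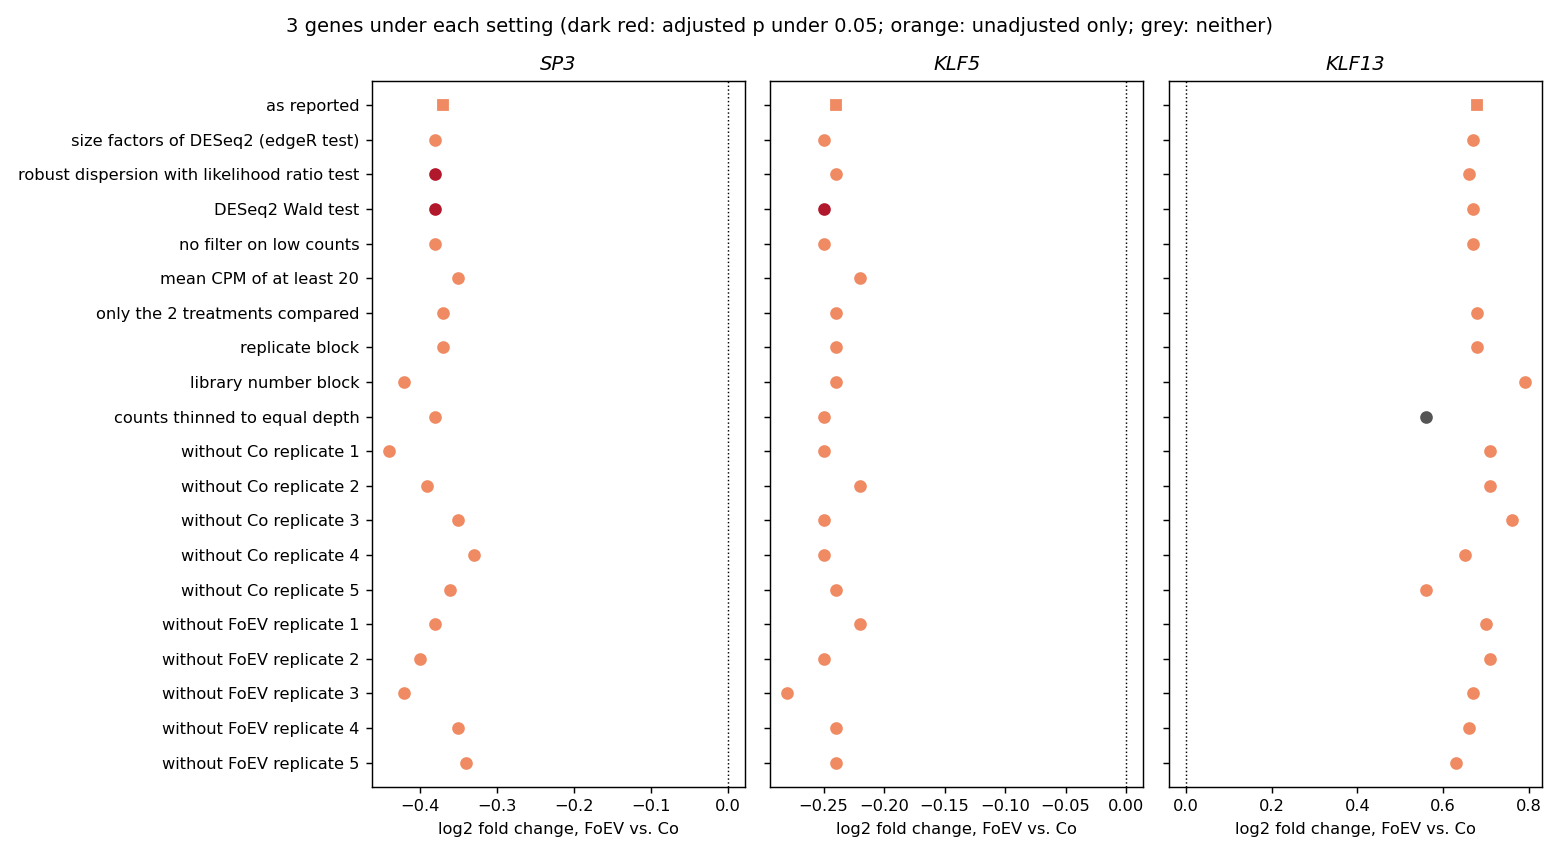
For SP3, KLF5 and KLF13, the log2 fold change of FoEV treatment vs. Co (x axis) is plotted under each setting (y axis), with a square for the value as reported. Dark red points have an adjusted p under 0.05, which holds for SP3 with the robust dispersion test (0.0216) and with DESeq2 (0.0293) and for KLF5 with DESeq2 (0.00568). KLF13 has no point for the filter at a mean of 20 CPM, which removes it.

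Among themselves the 10 genes did not vary as a block. Over the 45 pairs, Pearson's r of log2 CPM over the 15 libraries had a median of 0.17 and ran from -0.74 to 0.75. The highest values were those of SP3 with KLF5 (0.75) and of KLF3 with KLF4 (0.75). For SP3 and KLF5, r was 0.36 when each library was expressed as its deviation from its treatment mean, and for KLF3 and KLF4 it was 0.75. KLF4 also varied with SP1, with r = 0.57 over all libraries and 0.79 within treatments, and with KLF10 (0.54 and 0.63), and SP1 with KLF10 (0.65 in both). The lowest values were those of KLF13 with KLF5 (-0.74) and with SP3 (-0.72), and within treatments these were -0.17 and -0.29. All genes of a library share its depth and its pool of embryos, so these correlations are descriptions of 15 libraries.

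**Figure D5:**
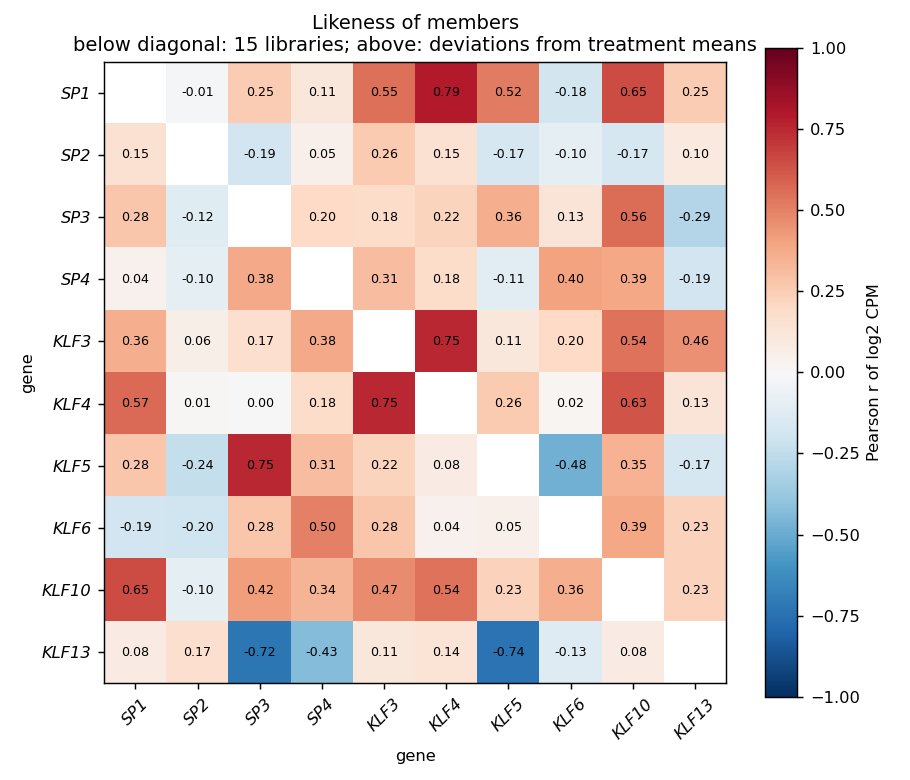
Both axes list the 10 genes, and each cell gives Pearson's r of log2 CPM, over the 15 libraries below the diagonal and over deviations from treatment means above it. KLF3 and KLF4 stand at 0.75 on both sides, while SP3 and KLF5 stand at 0.75 below and 0.36 above the diagonal.

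For each gene, the 3 most similar genes were sought among the 6501 genes with a mean of at least 20 CPM. SP3 varied most like NCKAP1 (r = 0.88), TNPO1 (0.88) and IREB2 (0.87), with 0.76, 0.74 and 0.62 within treatments. KLF5 varied most like OSBPL11 (0.91), MCL1 (0.89) and MKLN1 (0.87), and within treatments OSBPL11 kept 0.86 while MCL1 had 0.59. SP1 was nearest to MGAT5 (0.91), CCAR1 (0.90) and R3HDM1 (0.88), and KLF4 to BCL3 (0.91), SGPP2 (0.91) and FMNL1 (0.86), all with at least 0.86 within treatments. For KLF6 these genes were ABCB1 (0.91), COL12A1 (0.89) and ANXA1 (0.85), for KLF10 ENAH (0.89), TMCC1 (0.87) and ZFAND5 (0.87), and for KLF3 GNG2 (0.85), PARP14 (0.84) and NEO1 (0.81).

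The genes read at low depth had nearest genes as well. They were NSD2 (0.82), NBEAL2 (0.82) and WDR59 (0.75) for SP2, NFIL3 (0.83), ROCK1 (0.77) and PCMTD1 (0.75) for SP4, and SMIM10L1 (0.83), NSMF (0.82) and MEA1 (0.81) for KLF13. For KLF13 the 3 values within treatments were 0.63, 0.44 and 0.37. As the highest of 6501 values over 15 libraries are high in any case, they are given as a description.

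Of 16 other genes of the family found in the unfiltered table, 8 passed the filter. In FoEV treatment vs. Co, 3 of these 8 were higher and 1 was lower at an unadjusted p under 0.05, against 8.18% and 6.88% of all genes, and 0 passed an adjusted p under 0.05. Of the 4, KLF2 and KLF12 lay near the read minimum, so their counts are not free of the filter. KLF2, a factor of endothelium and immune cells, had 2.02 to 8.02 CPM in Co and 5.45 to 15.5 in FoEV (log2 fold change 0.93, edgeR adjusted p = 0.206). KLF16 averaged 21.4 ± 5.03 CPM without oEVs and 29.1 ± 4.74 CPM with frozen oEVs (SD, n = 5, log2 fold change 0.44, edgeR adjusted p = 0.206). KLF11, a close relative of KLF10, averaged 12.9 ± 3.46 CPM (Co), 16.8 ± 1.85 CPM (FeEV) and 17.2 ± 1.73 CPM (FoEV), with log2 fold changes against Co of 0.37 and 0.40 (edgeR adjusted p = 1 and 0.279). KLF12, a repressor, had 2.05 to 6.13 CPM in Co and 1.65 to 3.78 in FoEV (log2 fold change -0.89, edgeR adjusted p = 0.208), from 5 to 19 reads per library, and its log2 fold change was -0.72 for FoEV vs. FeEV treatment (edgeR adjusted p = 0.563). KLF12 exceeded the read minimum in 4 Co, 2 FeEV and 0 FoEV libraries, so it passed the filter through the other treatments, while KLF2, with 2, 4 and 5, could have passed through FoEV alone. In the gene order of a later bovine assembly KLF12 is the protein-coding neighbour of KLF5.

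The proteins that SP and KLF factors recruit were measured with 16 genes, all of which passed the filter, and their median log2 fold change was 0.02 for FoEV treatment vs. Co, with 2 of 16 at an unadjusted p under 0.05 against 15.1% of all genes. HDAC2, a histone deacetylase of the SIN3 complexes, was lower with frozen oEVs, averaging 59.7 ± 6.43 CPM against 74 ± 7.47 CPM without oEVs (SD, n = 5, log2 fold change -0.31, edgeR unadjusted p = 0.0199, adjusted p = 0.235). Against FeEV, the log2 fold change of HDAC2 was -0.33 (edgeR unadjusted p = 0.0132, adjusted p = 0.5). HCFC1, a coregulator that binds GC-box factors, was higher, with 285 ± 43.6 and 234 ± 21.4 CPM (log2 fold change 0.28, edgeR unadjusted p = 0.00766, adjusted p = 0.18). The other 14, among them SIN3A, the partner of KLF13, with 84.8 to 119 CPM, and CTBP2, a partner of KLF3, with 119 to 164 CPM, had an unadjusted p of 0.05 or more in all comparisons.

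Of the enzymes that modify these factors, 9 of 10 were matched. In FoEV treatment vs. Co, 0 of these 9 had an unadjusted p under 0.05, against 15.1% of all genes. OGT, which attaches the sugar GlcNAc to SP1, averaged 150 ± 33.7 CPM with fresh oEVs and 114 ± 17.1 CPM without oEVs (SD, n = 5, log2 fold change 0.39, edgeR unadjusted p = 0.0493, adjusted p = 1). OGT was the 1 gene of these 9 with an unadjusted p under 0.05 in FeEV treatment vs. Co, against 4.15% of all genes. WWP1, a ubiquitin ligase of KLF5, had 74.8 to 94.1 CPM in Co and 69.8 to 95.1 CPM in FoEV. FBXW7, which also targets KLF5 for degradation, had 43.8 to 60 CPM in Co and 36.4 to 56.3 CPM in FoEV.

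Upstream of KLF10, 2 of the 7 genes of the TGF-beta chain were lower with frozen oEVs than without oEVs at an unadjusted p under 0.05, against 6.88% of all genes, and 0 at an adjusted p. The receptor TGFBR1 averaged 109 ± 16.7 CPM with frozen oEVs and 137 ± 20.5 CPM without oEVs (SD, n = 5, log2 fold change -0.33, edgeR unadjusted p = 0.00859, adjusted p = 0.189), and against FeEV its log2 fold change was -0.29 (edgeR unadjusted p = 0.0185, adjusted p = 0.505). The common mediator SMAD4 had 88 ± 13.7 and 111 ± 7.46 CPM (log2 fold change -0.34, edgeR unadjusted p = 0.00482, adjusted p = 0.165). The ligand gene TGFB1 was higher in FoEV than in FeEV, with 15.3 ± 4.51 and 10 ± 3.86 CPM (log2 fold change 0.63, edgeR unadjusted p = 0.0169, adjusted p = 0.501). KLF10 itself, as given above, overlapped between all treatments.

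Of the 5 tested genes for other factors of GC-rich sites, ZNF148, which competes with SP1 at such sites, was lower in FoEV-treated embryos at an unadjusted p under 0.05 (1 of 5 genes, against 6.88% of all genes). All 5 FoEV libraries, with 40.1 to 48.8 CPM, lay below or at the edge of Co, with 48.8 to 60.2 CPM, and without overlap at full precision (log2 fold change -0.28, edgeR unadjusted p = 0.0207, adjusted p = 0.238). Such a lack of overlap in that direction held for 1.35% of all genes. ZNF148 no longer had an unadjusted p under 0.05 with the library number as a block, with counts thinned to equal depth, without Co replicate 1 or without Co replicate 3. EGR1, an immediate early gene, had 4.75 to 16.7 CPM in FeEV and 9.11 to 31 CPM in Co (log2 fold change -0.76, edgeR unadjusted p = 0.0478, adjusted p = 1). For FoEV treatment vs. Co, HCFC1, KLF16, SMAD4 and TGFBR1 kept an unadjusted p under 0.05 in all 19 alternatives and KLF12 in the 18 in which it was tested, while HDAC2 did in 17 of 19, KLF2 in 17 of 18 and KLF11 in 10 of 18. For FeEV treatment vs. Co, OGT did in 12 of 19, EGR1 in 9 of 18 and KLF11 in 5 of 18. Between the oEV treatments, HDAC2 did in 18 of 19, TGFBR1 in 17 of 19, TGFB1 in 16 of 18 and KLF12 in 11 of 18. In all, the 5 lists of related genes held 45 tested genes, and none of them passed an adjusted p under 0.05 in the edgeR test (0 genes in each of the 3 comparisons).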

How the data were processed

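Low-input total RNA-seq of 15 embryo pools was used. The authors deposited read counts per gene, without normalization, on the bovine assembly ARS-UCD1.2. The paper names QuasR Qcount for counting, and the submitters' processing notes name Trim Galore 0.4.3.1, HISAT2 2.1.0 and featureCounts 1.6.3. The filtered table (10832 of 34773 genes) is reproduced by a minimum of 4.72 CPM in at least 5 libraries. This rule was inferred from the deposited counts, while the paper states a lower CPM cutoff in fewer libraries. Symbols were joined by Gene ID from a later assembly (ARS-UCD2.0, 10709 genes matched). Of its positions only the order of genes was used, to name neighbours, and sequences were not used here. KLF18 and SUMO2 were not matched.

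Samples were grouped by title. Counts were TMM-scaled and fitted in 1 model over 15 libraries (estimateDisp, glmQLFit with robust=TRUE, glmQLFTest, edgeR 4.0.16, R 4.3.3). Alternatives were DESeq2 1.42.0, a likelihood ratio test after robust estimation of the dispersion, other filters and scalings, blocks by the replicate number of the title or the running number in the sample description (library number), the 2 treatments alone, leaving out each library and, added after seeing the data, thinning to equal depth. The standard error is the log2 fold change divided by the root of F, and 95% intervals use the degrees of freedom of the fit. Log2 CPM used a prior count of 2. Permutation tests and figures used Python 3.11.15, scipy 1.17.1 and matplotlib 3.10.9. The tests were tried on simulated counts with log2 fold changes larger than those of any member, so their recovery of differences as small as these was not tested. The 95% intervals cover the spread between libraries, while counting errors cover the sampling of reads only, as PCR copies were not told apart from separate molecules.

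The members, gene lists and tests were chosen with earlier results of these data known. Named genes are the 10 members, genes of the related lists at an unadjusted p under 0.05 in any comparison or named for a count of 5 or fewer, and for each member the 3 genes with the highest r. SIN3A, CTBP2, WWP1 and FBXW7 (known partners), KLF17, SP6, SP8 and the family genes below the filter were named after their values were seen.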

Additional observations from a re-analysis of the deposited data

Results flagged for a closer look

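In 33 sets of 5 libraries (10 genes and the ratio of SP1 to SP3 reads in 3 treatments), each set was searched for a library that stands apart, by Dixon's criterion for 5 values. KLF5 in FeEV replicate 2, at 818 CPM, stood above the other FeEV libraries, which had 723 to 751 CPM. Chance marks about 1 in 20 such sets, and 1 was marked here. Without this library the log2 fold change of KLF5 for FeEV treatment vs. Co was -0.14, and for FoEV vs. FeEV treatment -0.10.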

How the results depend on the processing

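The number of members with an adjusted p under 0.05 for FoEV treatment vs. Co was 0, and became 1 with the robust dispersion test and 2 with DESeq2, while the calls over all genes went from 1 to 311, 144 and, with the replicate block, 57. At an unadjusted p under 0.05 the number of members was 3. It became 2 with thinned counts, which lost KLF13, and 2 of 7 at a mean of at least 20 CPM, a filter that removes KLF13. When 1 library was left out it ran from 3 to 4, with SP4 added without FoEV replicate 2. For FeEV treatment vs. Co the number of members was 0. It became 1 with DESeq2 (KLF5) and, with KLF3 as that member, 1 without a filter, 1 with the replicate block and 1 with thinned counts, and ran from 0 to 1 when 1 library was left out (KLF3 without Co replicate 5 or FeEV replicate 2, KLF6 without FeEV replicate 1). Between oEV treatments it was 1, became 2 with DESeq2, and ran from 1 to 2 when 1 library was left out (KLF5 added without FoEV replicate 3). Of the 45 related genes, 9 had an unadjusted p under 0.05 for FoEV treatment vs. Co, against 15.1% of all genes, with 6 to 12 over the alternatives. For FeEV treatment vs. Co, 3 of the 45 had one, against 4.15% of all genes. The latter number became 1 under the size factors of DESeq2, 6 with the robust dispersion test and 1 at a mean of at least 20 CPM. It was 5 with the replicate block, 1 with thinned counts and 0 to 4 when 1 library was left out (0 without FeEV replicate 2, 1 without Co replicate 3, Co replicate 5 or FeEV replicate 5). Between oEV treatments 4 passed, against 8.52% of all genes, with 7 when no filter was used, and 2 to 5 when 1 library was left out (2 without FeEV replicate 3). With the replicate block, the difference of SP3 was -19.8 CPM for FoEV treatment vs. Co and -16.6 CPM between oEV treatments, each with an exact sign-flip p of 0.0625, the smallest that 5 pairs allow.

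Directions turned only in log2 fold changes near 0 that were called under no setting. For FoEV treatment vs. Co these were SP1 at a mean of at least 20 CPM (0.01) and with the library number block (0.06), KLF4 with the robust dispersion test (-0.01) and KLF10 with the library number block (0.06), and when 1 library was left out SP1 ran from -0.07 to 0.06, KLF4 from -0.10 to 0.12 and KLF10 from -0.10 to 0.05. KLF10 for FeEV treatment vs. Co ran from -0.02 to 0.21 when 1 library was left out. Between oEV treatments SP4 turned with the robust dispersion test (-0.07), without a filter (-0.01), with the replicate block (-0.04), with the library number block (-0.07) and with thinned counts (-0.02), and KLF6 with the robust dispersion test (0.01) and the library number block (0.03). When 1 library was left out, SP4 ran from -0.24 to 0.16, KLF6 from -0.12 to 0.09 and KLF3 from -0.02 to 0.18. The causes were not tested. By the replicate numbers of the titles, same-numbered libraries had mean correlations of residuals of 0.03 (FoEV with Co), 0.14 (FeEV with Co) and 0.19 (FoEV with FeEV). Libraries with different numbers had -0.01, -0.03 and -0.05, and single same-numbered pairs ran from -0.29 to 0.44. By library number, the means of same-numbered libraries were 0.08, 0.10 and 0.07, against -0.01 in each comparison. With at most 5 such pairs per comparison, these values do not settle whether either number pairs the pools. At 6 to 26 reads, depth limits what can be read of KLF13.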

Other observations

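KLF17, a family member of the early human embryo, was counted in all 15 blastocyst libraries, with 21 to 92 reads. Its level was 10.3 to 25.8 CPM in Co, 5.87 to 16.4 in FeEV and 7.36 to 26 in FoEV, and its log2 fold change was 0.00 for FoEV treatment vs. Co, -0.67 for FeEV treatment vs. Co (edgeR quasi-likelihood test, unadjusted p = 0.0733, adjusted p = 1) and 0.68 for FoEV vs. FeEV treatment (unadjusted p = 0.0666, adjusted p = 0.596). For FeEV treatment vs. Co, KLF17 had an unadjusted p under 0.05 with the robust dispersion test, without a filter, with the 2 treatments alone, with the replicate block, without Co replicate 5 and without FeEV replicate 4, and for FoEV vs. FeEV treatment with the robust dispersion test, DESeq2, no filter, the replicate block and without FeEV replicate 4, FoEV replicate 1 or FoEV replicate 5. SP6, the protein-coding neighbour of SP2 in the later assembly, had 15 to 31.4 CPM in the series, and SP8, separated from SP4 by 1 protein-coding gene there, had 4 to 30 reads per library. The neighbour of SP1, SP7, had 0 to 4 reads and was at 0 in 11 of 15 libraries, and SP9, separated from SP3 by 1 gene, had 0 to 1 reads. KLF1 and KLF14 were at 0 in 8 and 9 libraries, with at most 7 and 3 reads. SP5, KLF8, KLF9 and KLF15 were present in all libraries with 1 to 18 reads.

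The spread of SP4 between libraries was unequal across treatments, which was noticed after its values were seen and was not tested. Its coefficients of variation were 4.51% (Co), 11.7% (FeEV) and 40.6% (FoEV), while counting error alone gives 17.6%, 18.9% and 17.9%. The FoEV value thus exceeded counting error, and the Co value was below it.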
